A study of Mus musculus with 6 samples.

Results

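The genes described here are 9 members of the PARP family (Parp1, Parp2, Parp3, Parp8, Parp9, Parp10, Parp11, Parp12 and Parp14) and Dtx3l, in RAW264.7 cells, a mouse macrophage line transformed by Abelson leukaemia virus. They were taken by gene symbol from a table of 25124 genes, and all 10 were found. Poly(A) RNA was sequenced from 3 M1 samples, given LPS (lipopolysaccharide, the ligand of Toll-like receptor 4) at 100 ng/ml with IFN-γ (interferon-γ) at 50 ng/ml, and from 3 M0 samples given neither. All 6 samples were of the control line that carries Cas9 without a guide RNA, made as the counterpart of an E4BP4 knockout, and were grown in 25 mM glucose. The sources used here do not give the treatment time. Separate cultures are not stated for the replicates, so the p-values cover only sample-to-sample spread, part or all of which may be technical.

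PARP enzymes transfer ADP-ribose from NAD to proteins or nucleic acids. PARP1 and PARP2 build chains of it at DNA breaks, whereas most other family members attach single units or are catalytically inactive. Several of the latter, among them PARP9, PARP10, PARP12 and PARP14, are known as interferon-stimulated genes with roles against viruses, and viral macrodomain proteins are known to remove the mark. DTX3L, a ubiquitin ligase of the Deltex family, works in a complex with PARP9.

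The libraries held 15615639 to 20283180 reads in genes, so that 1 TPM (reads divided by transcript length and scaled within each library) stood for at least 26.5 reads of a transcript of 2000 bases. Levels below are in TPM, as mean ± SD with n = 3 per group. Tests are limma on log2(TPM + 1) over the 11297 genes that reached 1 TPM in 3 or more samples, with Benjamini-Hochberg adjusted p under 0.05 as the threshold. On this scale the tested genes had a median log2 fold change of -0.31, and dividing TPM by median-of-ratios factors moved it to 0.02. Genes are said to have risen or fallen by their calls on TPM, and values after that rescaling are given where a call of a named PARP or Deltex gene differs. The macrophage markers Adgre1, Csf1r, Itgam, Cd68, Lyz2 and Fcgr1 summed to 2010 to 2248 TPM in M0 and 1647 to 1671 TPM in M1. Lyz2 and Cd68 made up most of these sums. Of the 6, Adgre1 (24.8-fold) and Fcgr1 (3.46-fold) rose and 4 fell, against 2 higher and 2 lower after rescaling. Of 12 markers of T, B, epithelial, endothelial and fibroblast cells and neutrophils, none passed 0.829 TPM in any library, 2 were at 0 throughout, and their sums were 0.965 to 1.14 TPM in M0 and 1.81 to 2.23 TPM in M1. Whether the levels changed in every cell or in some of them cannot be told apart in such bulk samples.

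Promoter sequence was examined because 8 of the 10 genes moved in the same direction. RefSeq windows (GRCm38.p6, from 250 bases before to 50 bases after a gene's start) were found for 7 of the 10 members. They were searched on both strands for the interferon-γ activated site motif GAS (TTCNNNGAA) and for an interferon response motif of the ISRE type (GAAA, any 2 bases, GAAA). Parp11 was the only one of the 7 with a match, and only at the first of its 2 annotated starts, where the motifs overlap. Of all 32851 windows, 8.30% held a GAS match, 3.44% an ISRE match and 0.454% both. The 250 bases before each Parp11 start and, as the most abundant riser with a window, before the Parp12 start are shown 5′ to 3′ on the gene's strand, with motif matches in capitals.
Parp11, first start (chr6:127446590-127446839, plus strand): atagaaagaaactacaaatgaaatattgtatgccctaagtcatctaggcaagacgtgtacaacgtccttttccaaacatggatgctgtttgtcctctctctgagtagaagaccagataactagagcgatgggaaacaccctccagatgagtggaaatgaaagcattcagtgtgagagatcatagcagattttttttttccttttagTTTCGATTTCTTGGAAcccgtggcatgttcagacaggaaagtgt
Parp11, second start (chr6:127453377-127453626, plus strand): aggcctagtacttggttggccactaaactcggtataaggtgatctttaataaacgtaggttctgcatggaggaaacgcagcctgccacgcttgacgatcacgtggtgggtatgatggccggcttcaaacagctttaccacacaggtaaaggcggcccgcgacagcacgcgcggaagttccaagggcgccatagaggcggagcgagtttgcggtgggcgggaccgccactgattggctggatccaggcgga
Parp12 (chr6:39118350-39118599, minus strand): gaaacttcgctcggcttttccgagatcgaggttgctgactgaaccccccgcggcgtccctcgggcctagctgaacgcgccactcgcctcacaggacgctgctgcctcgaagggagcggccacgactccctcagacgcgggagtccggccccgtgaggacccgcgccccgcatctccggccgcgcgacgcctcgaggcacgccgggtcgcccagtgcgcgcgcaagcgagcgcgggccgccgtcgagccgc
In the first of these the ISRE match TTTCGATTTC begins 44 bases and the GAS match TTCTTGGAA 37 bases before the start. The deposited Parp11 row is placed on the second start, so its TPM does not tell which start was used. The second Parp11 window and the Parp12 window hold 20 and 41 CpG dinucleotides in these 250 bases, against 5 in the first, and the median of all windows is 6. Windows of Parp1, Parp2, Parp3, Parp8 and Dtx3l also lacked these letters, and Parp9, Parp10 and Parp14 had no window. Only exact letters within these windows were searched, so sites elsewhere or with other letters would be missed. For Parp1, no GENCODE M21 transcript of the gene held the bases after the start used here. The 250 bases before the Dtx3l start lie within the Parp9 row.

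Of the 10 genes, M1 samples had more of 8 and less of 2, all called, against 80.2% of all tested genes called (18.7% higher and 61.5% lower). After rescaling 8 were higher, 1 was lower and 1 was not called, against 73.5% of all tested genes called (38.1% higher and 35.4% lower). The increases reached at least 5-fold in mean TPM for 7 of the 10, where 3.09% of all tested genes passed that mark. In all 10 the M0 and M1 samples did not overlap, 8 with M1 above (19.6% of all tested genes) and 2 with M1 below (61.8%). Parp8, which is in each of these counts, passed the filter on low values through its M1 samples alone, so that it had to differ. The other 9 genes were above 1 TPM in every library. The 10 had a median log2 change of 2.39, beside -0.31 for all tested genes, and of 2.73 beside 0.02 after rescaling. The authors' deposited table called 8 of the 10 higher and 1 lower, against 17.6% and 15.9% of its 24421 genes.

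**Figure D1:**
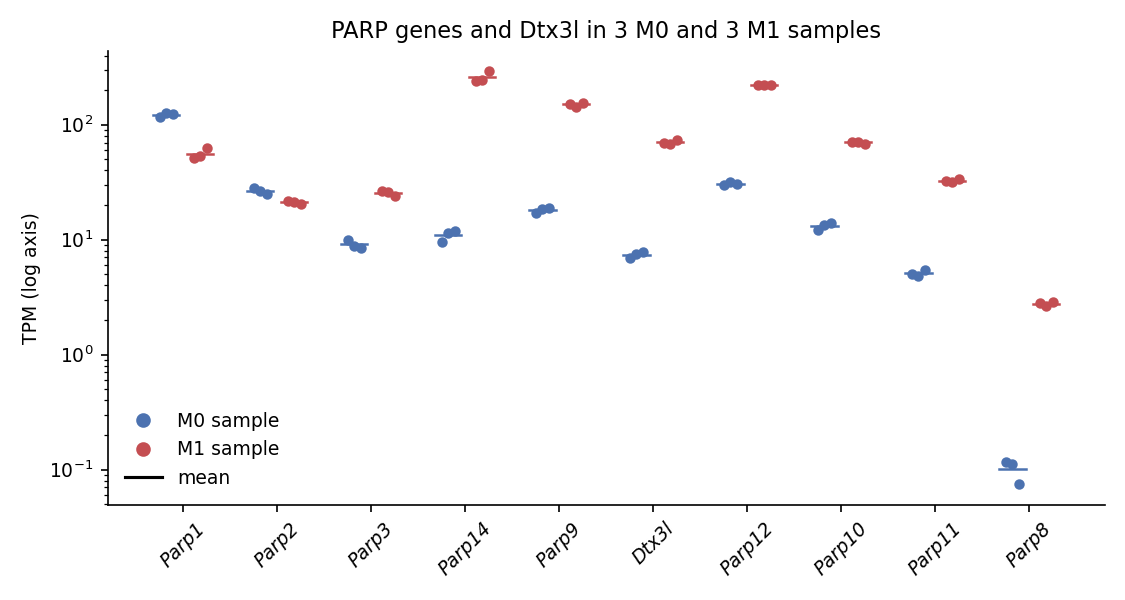
TPM (log axis) of each gene in the 3 M0 samples (blue) and 3 M1 samples (red), with the group mean as a line. For Parp3, Parp8 to Parp12, Parp14 and Dtx3l every M1 sample lies above every M0 sample, and for Parp1 and Parp2 below.

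The DNA-damage enzymes went different ways. Parp1 (NM_007415, chromosome 1, 180568891 to 180600999, plus strand, mm10), the main sensor of DNA strand breaks, had 116, 126 and 124 TPM in M0 replicates 1 to 3 and 51.0, 54.0 and 63.2 TPM in M1 replicates 1 to 3. Every M1 sample was below every M0 sample, and M1 replicate 3 was the highest of its group. Parp1 fell 2.18-fold, from 122 ± 5.47 to 56.1 ± 6.37 TPM (log2 change -1.11, SE 0.07, limma adjusted p = 1.1e-07), and was also lower after rescaling (log2 change -0.75). Of all tested genes 91.1% had a higher log2 fold change. The microRNA row Mir6904 lies within Parp1 on the same strand and fell as well, from 20.8 ± 3.35 to 8.32 ± 0.947 TPM, and reads of that stretch may belong to either.

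Parp2 (NM_009632, chromosome 14, 50807916 to 50821301, plus strand), its close functional partner, had 28.0, 26.4 and 24.7 TPM in M0 and 21.6, 21.5 and 20.5 TPM in M1. The groups did not overlap, and Parp2 changed by -0.30 on the log2 scale (SE 0.06, limma adjusted p = 0.00058), which is close to the median of all tested genes. Rescaling moved this to 0.05, not called (limma adjusted p = 0.50). A value of 0.04 stands in the authors' deposited table. The ratio of Parp2 to Parp1 TPM was 0.242, 0.209 and 0.199 in M0 and 0.424, 0.397 and 0.324 in M1. All 3 M1 ratios were above all 3 M0 ratios, a difference of 0.81 on the log2 scale (exact two-sided permutation p = 0.10, the smallest that 3 against 3 samples can give). Beside Parp2, Rpph1, 144 bases away on the opposite strand, rose from 1.52 ± 0.406 to 4.02 ± 0.238 TPM. Tep1, 2759 bases away on the other side and also on the opposite strand, fell from 9.79 ± 0.685 to 6.11 ± 0.539 TPM. Both calls were the same after rescaling.

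Parp3 (NM_145619, chromosome 9, 106470322 to 106476949, minus strand), which acts in double-strand break repair, had 10.0, 8.86 and 8.55 TPM in M0 and 26.4, 25.8 and 23.8 TPM in M1. It rose 2.77-fold, the smallest increase in mean TPM among the 8 genes that rose (log2 change 1.38, SE 0.07, limma adjusted p = 7.9e-09). Its neighbour Rrp9, which starts 359 bases away on the opposite strand and serves ribosome synthesis, rose 1.30-fold.

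Parp14, Dtx3l and Parp9 lie next to each other on chromosome 16. Parp14 (NM_001039530, 35832878 to 35871382, minus strand), a large macrodomain protein known as a STAT6 coactivator, had 9.58, 11.5 and 11.8 TPM in M0 and 242, 244 and 291 TPM in M1. The M1 samples were far above the M0 samples, with M1 replicate 3 the highest and M0 replicate 1 the lowest. Parp14 rose 23.6-fold, from 10.96 ± 1.202 to 259 ± 27.9 TPM (log2 change 4.44, SE 0.09, limma adjusted p = 7.0e-11), and 0.673% of all tested genes had a higher log2 fold change. Long transcripts in general also differed between libraries of a group. Among 1737 tested genes with transcripts of 5000 bases or more (Parp14 has 7232), the median deviation from the group mean was -0.08, 0.07 and 0.01 on the log2 scale for M0 samples, by replicate number, and -0.05, -0.04 and 0.09 for M1 samples. Parp14 was lowest in M0 replicate 1 and highest in M1 replicate 3 as these were, whereas its highest M0 sample was replicate 3 and not replicate 2. Their part in the Parp14 spread was not tested, and leaving out any of the 6 samples gave log2 changes of 4.36 to 4.49.

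Parp9 (NM_030253, 35938470 to 35972621, plus strand), a macrodomain protein, had 17.1, 18.4 and 18.7 TPM in M0 and 152, 144 and 155 TPM in M1. All M1 samples were above all M0 samples. It rose 8.33-fold, from 18.1 ± 0.871 to 150.4 ± 5.77 TPM (log2 change 2.99, SE 0.05, limma adjusted p = 8.2e-13).

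Dtx3l (NM_001013371, 35926515 to 35939027, minus strand), which encodes its ubiquitin ligase partner, had 6.86, 7.5 and 7.85 TPM in M0 and 69.5, 67.8 and 74.3 TPM in M1. Here too the groups were far apart. It rose 9.53-fold, from 7.40 ± 0.50 to 70.6 ± 3.38 TPM (log2 change 3.09, SE 0.06, limma adjusted p = 2.5e-12). The 95% intervals of the Dtx3l and Parp9 log2 changes, 2.95 to 3.23 and 2.87 to 3.10, overlapped, and that of Parp14, 4.24 to 4.65, lay above both.

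Parp9 and Dtx3l start head to head and their rows overlap by 558 bases on opposite strands. In the GENCODE M21 transcripts linked to these RefSeq identifiers, 367 exonic bases are shared (35938694 to 35939060), which is 10.3% of the Parp9 and 6.91% of the Dtx3l exon bases. Of the shared bases, 184 are coding in Dtx3l and none in Parp9. The sources used here do not state whether counting used strand, so reads from that stretch may belong to either gene. The ratio of Dtx3l to Parp9 TPM was 0.402, 0.407 and 0.420 in M0 and 0.458, 0.471 and 0.479 in M1. The ratios did not overlap between groups and differed by 0.20 on the log2 scale (exact two-sided permutation p = 0.10, the smallest possible here). With 1 TPM added to both genes, as in the gene tests, the ratios differed by 0.10 on that scale.

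The genes around this trio had smaller log2 changes. On the side of Parp9, Kpna1, an importin that carries proteins into the nucleus, starts 44.3 kb from the Dtx3l start and was at 30.8 ± 2.39 TPM in M0 samples and at 29.4 ± 1.13 in M1 samples. Its log2 change of -0.06 was not called (limma adjusted p = 0.37), although after rescaling it was 0.29 and called higher (adjusted p = 0.00067). On the side of Parp14, Hspbap1 rose from 0.686 ± 0.061 to 1.58 ± 0.141 TPM (log2 change 0.61, limma adjusted p = 2.7e-05). It lies 4415 bases from Parp14. Hspbap1 passed the filter on low values through its M1 samples alone, so that it had to differ, and with 0.1 added in place of 1 its log2 change was 1.10. Together with Slc49a4, Wdr5b, Fam162a and Ccdc58 these were the 6 other tested genes of the stretch, and their log2 changes with 1 added lay between -0.68 and 0.61.

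**Figure D2:**
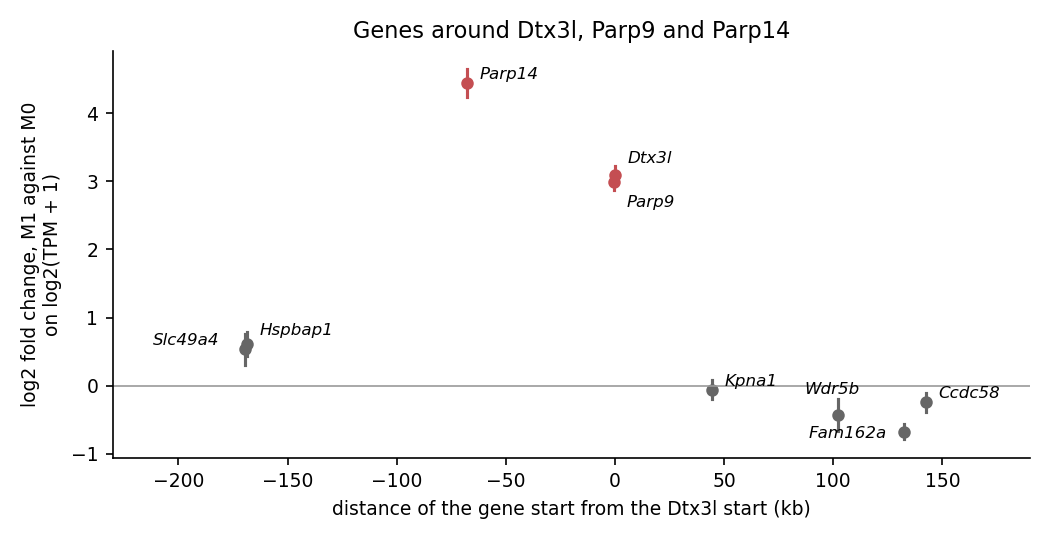
Log2 fold change of M1 against M0 on log2(TPM + 1), with 95% intervals, for tested genes by the distance of their start from that of Dtx3l in kb. Parp14, Dtx3l and Parp9 (red) lie between 2.99 and 4.44, and the surrounding genes (grey) between -0.68 and 0.61.

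Parp12, Parp10 and Parp11 rose between 5.29-fold and 7.21-fold. Parp12 (NM_172893, chromosome 6, 39086412 to 39118349, minus strand), a zinc finger member that restricts several RNA viruses, had 29.9, 31.8 and 30.7 TPM in M0 and 221, 222 and 222 TPM in M1. Its M1 samples were nearly equal, with an SD of 0.611 TPM around a mean of 222. It rose 7.21-fold (log2 change 2.81, SE 0.04, limma adjusted p = 3.1e-13). The nearest genes on either side, Tbxas1 and 4930599N23Rik, had folds of 1.16, called only after rescaling, and 1.28, called higher on both scales.

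Parp10 (NM_001163575, chromosome 15, 76232995 to 76243440, minus strand), a mono-ADP-ribosyltransferase first found as a MYC partner, had 12.2, 13.5 and 14.1 TPM in M0 and 71.1, 71.0 and 68.7 TPM in M1. The groups were well apart, and the rise was 5.29-fold (log2 change 2.32, SE 0.06, limma adjusted p = 1.7e-11). The neighbour Grina, 3366 bases away on the opposite strand, rose 1.54-fold. Parp11 (NM_001362186, chromosome 6, 127453627 to 127494261, plus strand), another mono-ADP-ribosyltransferase, had 5.04, 4.88 and 5.48 TPM in M0 and 32.3, 31.7 and 33.7 TPM in M1. Again every M1 sample was above every M0 sample, and the rise was 6.35-fold (log2 change 2.45, SE 0.06, limma adjusted p = 1.9e-11).

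Parp8 (NM_001081009, chromosome 13, 116850844 to 117025531, minus strand), a little-studied member, had 0.117, 0.112 and 0.075 TPM in M0 and 2.80, 2.66 and 2.87 TPM in M1. It was the lowest of the 10 genes in both groups. The M0 values rested on 13, 12 and 7 reads, 32 in all (95% exact Poisson interval 21.9 to 45.2, counting error only), and the M1 values on 963 reads. The ratio of mean TPM was 27.4, higher than that of Parp14. The log2 change of Parp8 on log2(TPM + 1) was only 1.78 (SE 0.08), because the added 1 weighs on values near 0. With 0.1 added instead, the log2 change was 3.84, and the authors' deposited table gave 5.15. With 1 added the limma adjusted p was 1.8e-09, but Parp8 was tested only through its M1 samples, so that it had to differ.

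The order of levels differed between the states. In M0, Parp1 stood first at 122 TPM, ahead of Parp12, Parp2, Parp9 and Parp10. Parp14, at 10.96 TPM, came next and overlapped with Parp3, followed by Dtx3l, Parp11 and Parp8. In M1, Parp14 stood first, ahead of Parp12 and Parp9. Dtx3l and Parp10, at 70.6 and 70.2 TPM, overlapped, and Parp1 was sixth, ahead of Parp11, Parp3, Parp2 and Parp8. Apart from these pairs, neighbours in either order did not overlap in their 3 samples.

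Over the 9 PARP genes and the 7 other family genes in the table, TPM summed to 379, 413 and 403 in the M0 replicates and to 1010, 1001 and 1090 in the M1 replicates, 2.60-fold more on average. Parp1 made up 30.7% ± 0.172 of that sum in M0 and 5.42% ± 0.376 in M1. Parp9, Parp10, Parp11, Parp12 and Parp14 together made up 19.6% ± 0.355 in M0 and 71.1% ± 0.287 in M1. Parp14 alone went from 2.75% ± 0.205 to 25.0% ± 1.49. These are shares of RNA and say nothing of protein or activity.

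**Figure D3:**
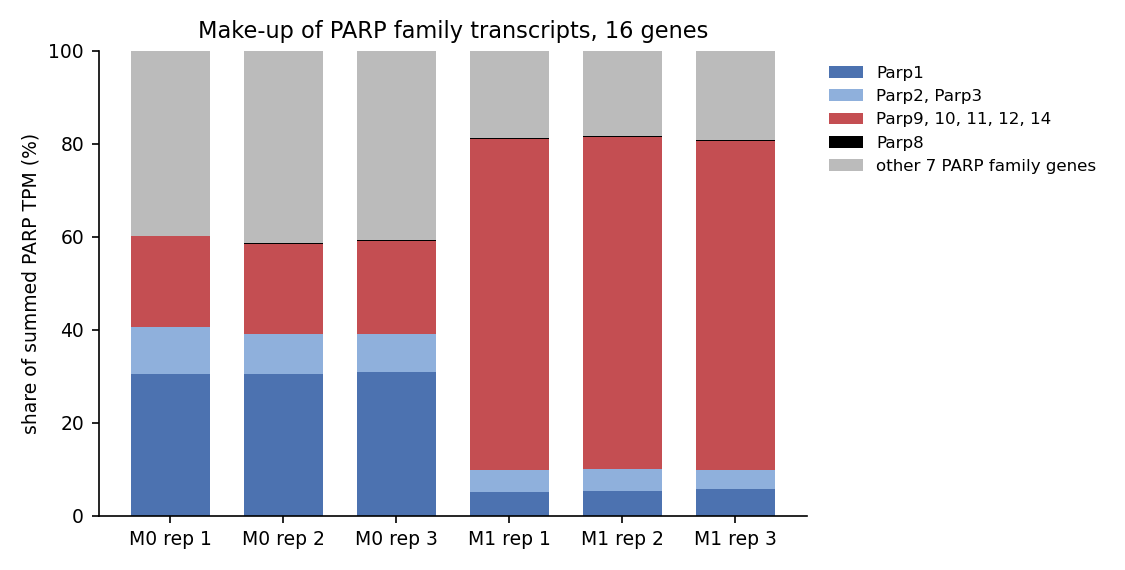
Share of the summed TPM of 16 PARP family genes (percent, axis from 0) in each sample. Parp9, Parp10, Parp11, Parp12 and Parp14 (red) make up 19.4% to 20.1% in the M0 samples and 70.7% to 71.3% in the M1 samples.

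Each of the 7 other family genes had a smaller log2 change than any of the 8 genes that rose. Zc3hav1, the antiviral zinc finger protein ZAP, which binds viral RNA and lacks PARP activity, rose 1.88-fold, from 44.8 ± 4.96 to 84.2 ± 7.29 TPM (log2 change 0.90, limma adjusted p = 4.1e-06). Parp4, a component of vault particles, and Tiparp, a target and repressor of the aryl hydrocarbon receptor, rose 1.25-fold and 1.13-fold in TPM. Rescaling moved the log2 change of Parp4 from 0.28 to 0.60 and that of Tiparp from 0.17 to 0.53. Parp16, of the endoplasmic reticulum membrane, fell from 4.13 ± 0.0675 to 2.06 ± 0.248 TPM, and Parp6 from 6.11 ± 0.35 to 3.93 ± 0.184 TPM. Their log2 changes were -0.75 and -0.53, and after rescaling -0.48 and -0.23. Of the tankyrases, which act on axin and telomere proteins, Tnks2 fell from 48.3 ± 3.51 to 37.5 ± 1.903 TPM, and Tnks had 9.01 ± 0.641 and 8.85 ± 0.636 TPM and was not called. In all 3 rose, 3 fell and 1 was not called, against 4, 2 and 1 after rescaling, where Tnks was higher (log2 change 0.30) and Tnks2 was not called (log2 change 0.00249). All tested genes had 18.7% higher and 61.5% lower, and 38.1% and 35.4% after rescaling.

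**Figure D4:**
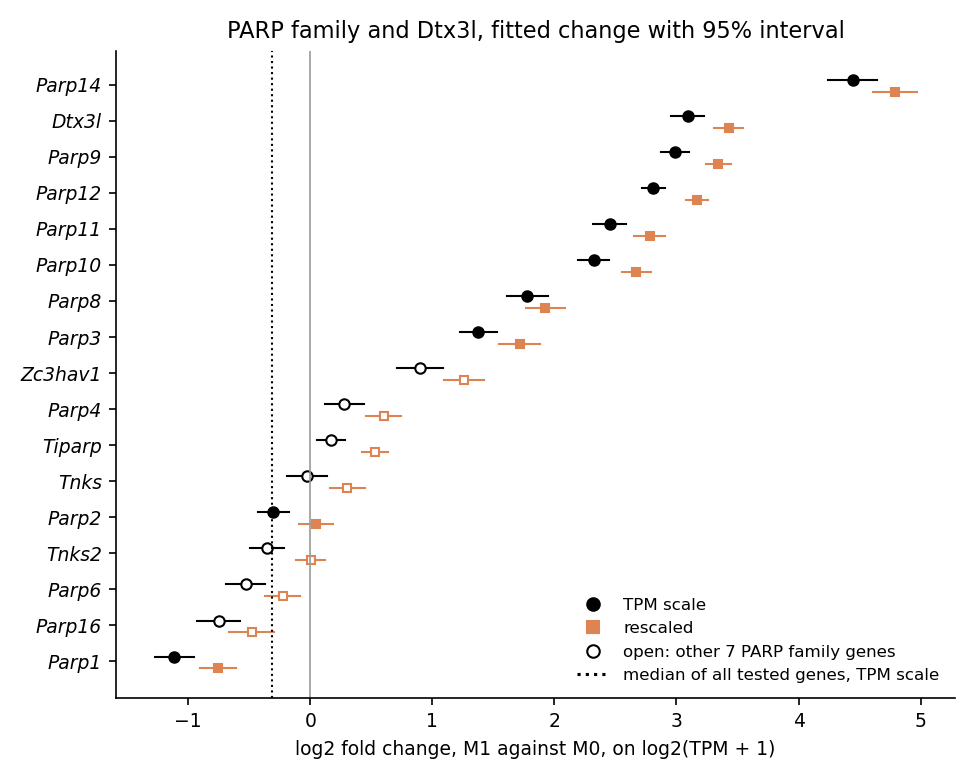
Log2 fold change of M1 against M0 on log2(TPM + 1), with 95% intervals, on the TPM scale (black) and after rescaling (orange), for the 9 PARP genes and Dtx3l (filled) and the 7 other family genes (open). The dotted line is the median of all tested genes, -0.31. The 8 genes that rose lie at 1.38 or above on the TPM scale, and Zc3hav1, at 0.90, is the next.

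Of the 3 other Deltex genes tested, none rose on the TPM scale, 2 fell and 1 was not called. Over all tested genes 18.7% were higher and 61.5% lower on that scale. Dtx3 fell from 9.90 ± 0.271 to 4.44 ± 0.472 TPM and Dtx4 from 10.7 ± 0.058 to 6.72 ± 0.0842 TPM. Dtx2 had 8.21 ± 0.421 and 7.46 ± 0.523 TPM and was not called on this scale, while rescaling made it higher (log2 change 0.20, limma adjusted p = 0.021). Dtx1 was too low to be tested.

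Genes that supply NAD or act with these enzymes were read from lists. Nampt, the rate-limiting enzyme of NAD salvage, had 71.4, 76.0 and 72.4 TPM in M0 and 598, 580 and 587 TPM in M1. It rose 8.03-fold with no overlap (log2 change 2.99, SE 0.04, limma adjusted p = 1.7e-13), a log2 change equal to that of Parp9 to 2 decimals. Nadk, the kinase that makes NADP, rose 1.76-fold to 96.5 ± 2.15 TPM. Of 6 tested genes of NAD supply and use, 2 rose, 2 fell and 2 were not called, against 4 higher and none lower after rescaling. The shares of all tested genes were 18.7% higher and 61.5% lower, and 38.1% and 35.4% after rescaling. Nmnat3 and Nadsyn1, which make NAD in later steps, were the 2 that fell. Nmnat3 went from 3.09 ± 0.219 to 2.01 ± 0.144 TPM, and Nadsyn1 from 3.73 ± 0.428 to 2.24 ± 0.676 TPM. Sirt1, an NAD-dependent deacetylase, had a mean of 14.1 TPM in both groups and was not called, while after rescaling it was higher (log2 change 0.34, limma adjusted p = 0.00038). The list's median log2 change was -0.01, beside -0.31 for all tested genes, and 0.31 beside 0.02 after rescaling.

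Of 8 partners of PARP1 and PARP2 in strand-break repair, none rose, 6 fell and 2 were not called. Among all tested genes 18.7% were higher and 61.5% lower. The partners had a median log2 change of -0.41, beside -0.31 for all tested genes. After rescaling 3 were higher and 4 lower, against 38.1% and 35.4% of all tested genes. Fen1, a flap nuclease, fell from 96.7 ± 5.69 to 57.2 ± 2.06 TPM. Hpf1, which directs PARP1 and PARP2 to serine, fell from 101 ± 3.04 to 70.6 ± 1.38 TPM. DNA polymerase β (Polb) had 35.2 ± 0.739 and 37.8 ± 2.76 TPM and was not called, while after rescaling it was higher (log2 change 0.45, limma adjusted p = 9.4e-05).

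Of 10 tested genes that remove or read ADP-ribose, 1 rose, 7 fell and 2 were not called, against 4 higher and 3 lower after rescaling. For all tested genes the shares were 18.7% higher and 61.5% lower, and 38.1% and 35.4% after rescaling. The list's median log2 change was -0.27, near that of all genes. Oard1, which takes ADP-ribose off proteins, fell from 24.7 ± 1.53 to 13.8 ± 1.09 TPM, and Aplf, a repair factor that binds poly(ADP-ribose), from 10.7 ± 0.445 to 5.22 ± 0.0595 TPM. Gdap2, which has a macrodomain, rose from 15.3 ± 0.62 to 17.7 ± 0.0883 TPM. Parg, the main enzyme that degrades the chains, fell from 14.7 ± 0.773 to 12.2 ± 0.661 TPM but was not called after rescaling (log2 change 0.09). Adprh, which acts on arginine, had 30.3 ± 0.47 and 29.8 ± 1.89 TPM and was not called on the TPM scale, but was higher after rescaling (log2 change 0.33).

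Of 8 interferon receptor, kinase and transcription factor genes, 7 rose and 1 fell, where 18.7% of all tested genes were higher and 61.5% lower. After rescaling 7 were again higher and 1 lower, against 38.1% and 35.4% of all tested genes. The list's median log2 change was 1.92, beside -0.31 for all tested genes, and 2.27 beside 0.02 after rescaling. Irf1, a factor that binds ISRE, rose 23.3-fold to 478 ± 4.76 TPM. Ifngr1, the ligand-binding chain of the IFN-γ receptor, was the one that fell, from 24.2 ± 0.378 to 11.6 ± 0.121 TPM. Jak2 rose 10.7-fold and Stat2 8.29-fold, whereas Irf9, Ifngr2 and Jak1 rose only 1.92-fold, 1.33-fold and 1.19-fold.

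**Figure D5:**
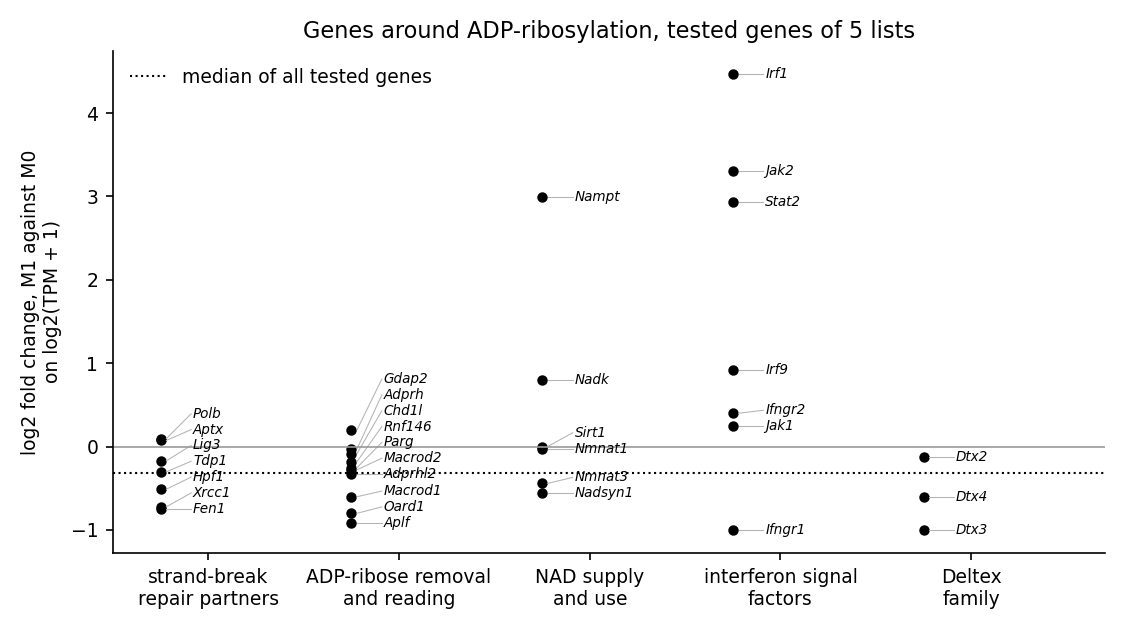
Log2 fold change of M1 against M0 on log2(TPM + 1) of tested genes in 5 lists. The dotted line is the median of all tested genes, -0.31. Nampt (2.99) stands apart from the other NAD genes, and the repair partners and ADP-ribose genes shown lie between -0.91 and 0.20.

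Among the 6229 RefSeq genes whose M1 mean reached 10 TPM, Parp9 was the second nearest to Dtx3l by the Euclidean distance of centred log2(TPM + 1) over the 6 samples. The 5 nearest genes outside the family were Daxx, a histone chaperone, with a distance of 0.0699, the deubiquitinase gene Otud1 (0.142), the lipopeptide receptor gene Tlr2 (0.149), Tent5c, a poly(A) polymerase (0.171), and Skil (0.18). The distance of Parp9 was 0.136 and that of Parp12 0.371, which placed Parp12 as number 42. Daxx went from 17.3 ± 0.78 to 158 ± 8.28 TPM. The distance is a description over 6 samples in 2 groups, in which the step between the groups weighs most.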

How the data were processed

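RNA of 6 samples was sequenced from poly(A)-selected libraries, per the labels' protocols. Build mm10 and the tools STAR 2.7.5a, HOMER 4.11.1, bcl2fastq and DESeq2 are listed, without their roles, per the submitters' processing notes. The authors deposited TPM per gene, per the file headers. They also deposited log2 values of 24421 genes, whose transform is not stated, with a log2 change and a raw and an adjusted p-value for each gene. TPM times transcript length was a whole multiple of a fixed value per library, within 0.1, for 99.8% to 99.99% of values above 0, which gave the reads behind each value. The listed TPM summed to 551257 to 572349 per library.

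The first-choice count model could not be used on TPM, so limma 3.58.1 (R 4.3.3, trend and robust) was run on log2(TPM + 1) with group as the only term. The procedure was tested on simulated data. Alternatives were median-of-ratios rescaling, other pseudocounts, filters of 0 and 5 TPM, plain empirical Bayes, a replicate block and leaving out each sample. Named were all members, the other PARP genes, per list the 2 smallest p per direction and the most abundant gene not called, the 5 genes most like Dtx3l, and tested nearest neighbours. Hpf1, Parg, Stat2, Jak2, Irf9, Ifngr2, Jak1, Dtx1, Mir6904 and the further genes around Dtx3l were named after their values were seen. A few listed genes are counted but not reported here by name. Members and lists were chosen with earlier results of these data known. The list gene Adprs was matched through its older symbol. Of the 50-base words of a GENCODE transcript of each member (for Parp8 one shorter than its row), those found in another gene's GENCODE M21 transcripts were 9.09% for Parp9, 8.73% for Dtx3l, 0.841% for Parp14 and none for the other 7.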

Additional observations from a re-analysis of the deposited data

How the results depend on the processing

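For 9 of the 10 genes every alternative that was run left the direction and the call as they were. The exception was Parp2, whose log2 change was 0.0481 after rescaling. Parp8 could not be tested at 5 TPM or without an M1 sample, since the filter then removed it, so that the number of members called higher was 7 to 8 when samples were left out. Rescaling gave 4305 genes higher and 4002 lower over all genes, 1 member lower, 4 and 3 ADP-ribose removal and reading genes higher and lower, 3 repair partners higher, 4 and 0 NAD genes higher and lower, and 1 Deltex gene higher. It turned the log2 changes of Tnks to 0.30, Tnks2 to 0.00249 and Kpna1 to 0.29. Leaving out samples gave Tnks log2 changes of -0.0726 to 0.0257, above 0 without M0 replicate 2 or without M1 replicate 2 and never called, and 0 to 1 repair partners higher, with 1 without M1 replicate 3. NAD genes lower numbered 4 without a filter and 0 at 5 TPM, since the filter decides which are tested. With the replicate number as a block, 8 members were higher and 2 lower, with 2143 and 7016 over all genes, and no call of a member changed. The exact sign-flip test of both ratios with that pairing gave p = 0.25, the smallest 3 pairs allow. Same-numbered samples deviated from their group means with correlations of 0.0714, -0.0757 and 0.0368. Differently numbered samples had correlations of -0.179 to 0.152. With so few samples these values cannot tell whether equal numbers mark a shared culture or day.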
